A study of Mus musculus with 72 samples.

Results

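The respiratory chain and ATP synthase were followed in mouse liver through 104 gene rows, which were all rows of the sense gene count table with symbols of the Nduf, Sdha to Sdhd, Uqcr, Cox4 to Cox8 and Atp5 series and the protein genes of mitochondrial DNA. Pseudogene symbols containing -ps, 7 in number, were left out. Of the 104 rows among 27846 in the table, 13 lie on mitochondrial DNA and 91 on nuclear chromosomes. The 104 rows carry 103 symbols, because Atp5o is listed in 2 rows.

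The study compared wild-type C57bl6 mice held under chronic circadian misalignment with control mice, in both sexes, to ask how the liver transcriptome over the day depends on misalignment and sex. Misaligned females, misaligned males, control females and control males gave 18 livers each, 3 at each of 6 clock times (0, 4, 8, 12, 16 and 20 h). The mice were 8 to 16 weeks old. The labels give 12 h of light and 12 h of dark for controls and misaligned mice alike. All had food at all times and changed from chow to a diet with 42% of calories from fat in week 1 of the paradigm. The labels do not describe the misalignment schedule, nor how the clock time of a misaligned mouse related to its light cycle at collection. Whole liver was taken after the blood had been removed by perfusion of the heart, so all cell types of the organ are in each library. Sex labels fitted the counts of every library, with 2508 to 4573 counts of Xist in females and 0 to 4 in males.

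Oxidative phosphorylation is carried out by proteins of the mitochondrial inner membrane. Complex I takes electrons from NADH and complex II from succinate, complex III passes them to cytochrome c, and complex IV, cytochrome c oxidase, hands them to oxygen. ATP synthase uses the proton gradient that complexes I, III and IV build. Mitochondrial DNA encodes a small set of core subunits of complexes I, III, IV and ATP synthase, which are transcribed inside the organelle as long precursors, whereas complex II and all other subunits come from nuclear genes and are imported as proteins.

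What a read count of a mitochondrially encoded member means depends on a near-copy of mitochondrial DNA in the nuclear genome. On chromosome 1 of GRCm38, minus strand, 7 annotated pseudogenes lie between 24611535 and 24616197 in the same order as mt-Co1 to mt-Nd4. The deposited tables give each gene in 2 versions, one (MIN) with reads assigned to 1 feature and the other (MAX) with ambiguous reads added. The start of mt-Nd4l, a complex I core subunit, is shown with that of its counterpart Gm10222, because all 294 aligned bases of this pair are identical. They lie at chrM:9877-9966, plus strand, and chr1:24612611-24612700, minus strand, and both are given 5′ to 3′ in lower case, with no capitals because no base differs.
mt-Nd4l: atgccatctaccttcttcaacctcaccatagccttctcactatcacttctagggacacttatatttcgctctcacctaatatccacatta
Gm10222: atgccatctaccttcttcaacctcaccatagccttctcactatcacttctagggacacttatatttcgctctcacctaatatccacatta

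The coding sequences of mt-Co2 and Gm28661 were identical over 681 bases, of mt-Atp6 and Gm10925 over 678 bases and of mt-Co3 and Gm28437 over 783 bases. Gm28439 matched mt-Nd4 over 876 bases, which is 63.6% of that gene. The pair of mt-Nd3 and Gm28438 had 344 of 345 bases in common and differed by T3C, counted from the first base of the gene. Their first bases are shown with the differing base in capitals, from chrM:9459-9491, plus strand, and chr1:24613087-24613119, minus strand.
mt-Nd3: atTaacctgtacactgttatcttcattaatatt
Gm28438: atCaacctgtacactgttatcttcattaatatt
mt-Co1 met its counterpart Gm29216 over 492 bases, 31.8% of the gene, with 486 identical. The alignment allowed no gaps, and where exactly the copy of mt-Co1 begins was not tested. All the differences (T1056A, C1057T, A1059G, A1060G, C1062A and A1066T) lie in the first bases of Gm29216, at the outer edge of the block of pseudogenes. An identical run of 479 bases follows them. The stretch is shown with the differing bases in capitals, from chrM:6381-6440, plus strand, and chr1:24616138-24616197, minus strand.
mt-Co1: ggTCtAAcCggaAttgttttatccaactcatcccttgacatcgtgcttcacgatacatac
Gm29216: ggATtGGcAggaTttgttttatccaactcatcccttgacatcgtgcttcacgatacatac

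The genes with a copy were the genes that lost reads between the versions. mt-Co3, a core subunit of complex IV, had a mean of 5364 counts per library in MIN and 155342 in MAX, so that 3.45% of its reads stayed in MIN. The share that stayed was 4.27% for mt-Co2, 3.41% for mt-Atp6, 5.24% for mt-Nd3 and 4.42% for mt-Nd4l. mt-Co1 and mt-Nd4, which are copied in part, kept 74.2% and 55.8%. mt-Nd1, mt-Nd2, mt-Nd5, mt-Nd6 and mt-Cytb, none of which has a counterpart among the 7 pseudogenes, kept between 98.5% and 99.96%. mt-Atp8 kept 9.74% and has no counterpart of its own there, but it overlaps mt-Atp6 on mitochondrial DNA. The pseudogenes mirrored this, with Gm28437 at a mean of 4458 counts in MIN and 154460 in MAX. Reads of the copied genes and of the pseudogenes cannot be told apart in these tables. Levels of the 6 genes mt-Co2, mt-Co3, mt-Atp6, mt-Atp8, mt-Nd3 and mt-Nd4l are therefore uncertain in MIN. The other 7 carry the mitochondrial results, although mt-Co1 and mt-Nd4 among them also lost part of their reads.

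**Figure D1:**
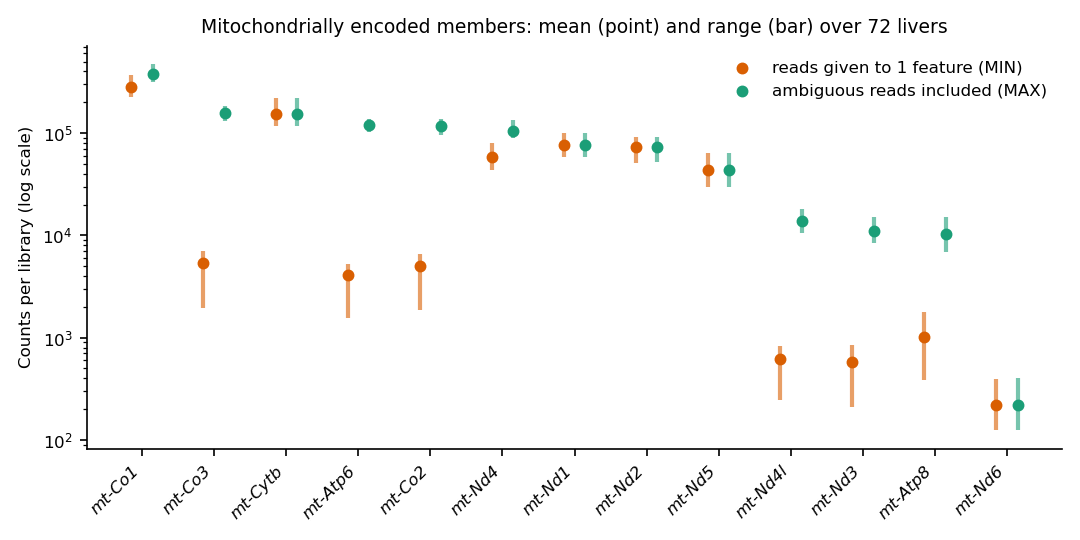
Counts per library (vertical axis, log scale) of the 13 mitochondrially encoded members, sorted by their MAX mean; points are means and bars the range over 72 livers, orange for MIN and green for MAX. mt-Co3, mt-Atp6, mt-Co2, mt-Nd4l, mt-Nd3 and mt-Atp8 drop by more than 10 times between MAX and MIN, whereas mt-Cytb, mt-Nd1, mt-Nd2, mt-Nd5 and mt-Nd6 coincide.

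The reads kept for those 6 genes also varied between livers. Their summed MIN counts were 1.46% to 4.57% of their MAX counts in misaligned females, with a median of 3.69%, and 1.39% to 5.31% in misaligned males, with a median of 4.10%. In control females the range was 3.01% to 4.50% and the median 3.76%, and in control males it was 3.05% to 5.27% with a median of 4.30%. A set of 3 misaligned livers lay under 2.5%, namely the female livers of 8 h replicates 1 and 3 and the male liver of 16 h replicate 2, while the lowest of all others was 2.89%. The medians and counts of calls that involve these genes are given with and without those 3 livers.

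The nuclear members were hardly touched by ambiguity. Of the 86 that were tested, 77 kept at least 90% of their reads. The lowest shares were those of Atp5g2 with 55.3%, Ndufb4 with 67.1%, Ndufb9 with 72.3% and Atp5l with 76.7%. The second Atp5o row held 6 counts over all libraries in MIN and was not tested.

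Mitochondrial transcripts made up far more of each library than the nuclear members did. Libraries were nearly equal in total, with 11551524 to 12529963 MIN counts. How far the pipeline that made the deposited counts had evened these totals was not tested. The 13 mitochondrially encoded members took 4.84% to 7.57% of the MIN counts of a liver, with a median of 5.84%, against 1.08% to 1.49% for the 91 nuclear members, with a median of 1.24%. Within a liver the mitochondrial sum was 3.72 to 5.80 times the nuclear sum. In MAX counts the mitochondrial share was 7.43% to 10.6%. The 2 sums, as log2 CPM (the usual library-scaled count, here on TMM-scaled library sizes), varied together across livers with Pearson's r of 0.66 (n = 72), which is given as a description because both share the library and its depth.

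By sex and treatment, the mitochondrial share was 4.84% to 6.02% in misaligned females, with a median of 5.45%, and 5.60% to 7.57% in misaligned males, with a median of 6.23%. Control females had 4.92% to 6.52%, median 5.59%, and control males 5.07% to 6.86%, median 6.19%. Female medians were below male medians under both treatments, and the ranges of the sexes overlapped. The nuclear share had medians of 1.20% in misaligned females, 1.28% in misaligned males, 1.22% in control females and 1.27% in control males, with ranges that overlapped almost wholly.

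**Figure D2:**
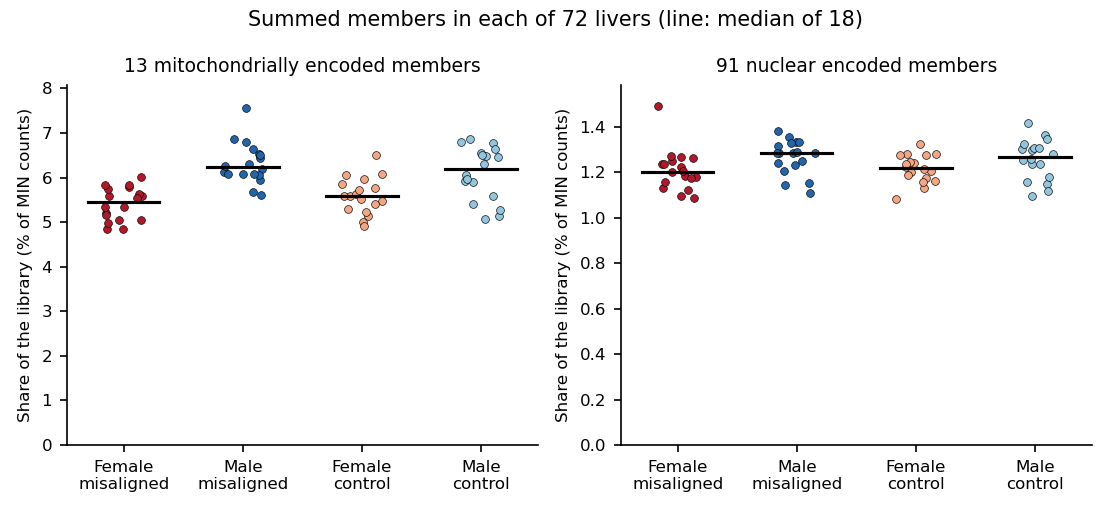
Share of each library's MIN counts (vertical axes, %) taken by the 13 mitochondrially encoded members (left) and the 91 nuclear encoded members (right); each point is 1 of 72 livers and each line the median of 18. Mitochondrial medians of females (5.45% misaligned, 5.59% control) lie below those of males (6.23% misaligned, 6.19% control), and the 4 nuclear medians lie between 1.20% and 1.28%.

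Per kilobase of exon in MIN, the highest member was mt-Co1, the catalytic core of complex IV, with a mean of 15145 CPM per kb. mt-Cytb, the only complex III subunit of mitochondrial DNA, followed with 11358, then mt-Nd1 with 6618, mt-Nd2 with 5851, mt-Nd4 with 3578 and mt-Nd5 with 2008 CPM per kb. The 6 copied or overlapping genes lay between 140 and 615 CPM per kb in MIN. The order below mt-Co1 depends on the version of the counts. In MAX counts mt-Co3, of 784 bases, had a mean of 155342 counts per library, beside 155140 for the longer mt-Cytb. mt-Nd4 kept 55.8% of its reads in MIN, and mt-Co1 74.2%. mt-Nd6, the only protein gene transcribed from the other strand, was the lowest in these poly(A) libraries with 35.1 CPM per kb.

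Among nuclear members, ATP synthase and complex IV held the highest single genes. Atp5a1 and Atp5b, the alpha and beta subunits of the catalytic head, reached 376 and 325 CPM per kb. Cox6b1 and Cox4i1 of complex IV followed with 285 and 227 CPM per kb, and Sdhd, a membrane anchor of complex II, with 205. Class medians per kb were 136 for complex III, 126 for complex IV, 119 for complex II, 70.7 for ATP synthase, 52.1 for the accessory and 41.7 for the core subunits of complex I. Complex I assembly factors, which are not part of the finished complex, had the lowest median, 4.93 CPM per kb, with Ndufaf1 highest at 17.3.

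Apart from the second Atp5o row, the members that the count filter removed are known as isoforms of other organs or states. Cox6a2 and Cox8b, forms of heart and skeletal muscle, had 45 and 37 counts over all 72 livers. Cox4i2, known from lung and low oxygen, had 105 counts, and Cox6b2, a testis form, 158. Ndufa4l2, which low oxygen induces, passed the filter with a mean of 13.2 counts per library. In total 99 members were tested, all 13 mitochondrial and 86 nuclear.

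Misalignment did not move the mean level of any member past the threshold in either sex. The means over the 6 clock times were compared with edgeR's quasi-likelihood test, adjusted over all 15066 genes tested by Benjamini and Hochberg at 0.05. In females 0 of 99 members were called, where 0.00664% of all genes were, and 0 members had an unadjusted p under 0.05, against 6.68% of all genes. In males 0 of 99 members were called, where 0% of all genes were, and 4 had an unadjusted p under 0.05, against 6.19% of all genes. limma-voom and DESeq2 also called 0 members in each sex, with 0 in females and 4 in males under an unadjusted 0.05. A p that misses the threshold does not show equality, and the 95% intervals of the log2 differences reached from −0.38 (mt-Atp8) to 0.45 (Ndufa4l2) in females and from −0.42 (Ndufa4l2) to 0.49 (Uqcrq) in males.

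Mitochondrially encoded members leaned down in misaligned females and up in misaligned males, within that error. Their median log2 difference, misaligned minus control, was −0.08 in females, with 11 of 13 negative, and 0.05 in males, with 11 of 13 positive. These medians include the 6 genes whose levels are uncertain in MIN. The other 7 ranged from −0.08 (mt-Nd4) to 0.13 (mt-Nd6) in females and from 0.05 (mt-Nd6) to 0.13 (mt-Nd5) in males. Among these 7, mt-Nd4 and mt-Co1 are copied in part. In MAX counts they had −0.02 and −0.04 in females and 0.09 and 0.08 in males. The nuclear medians were −0.01 in females and 0.05 in males, with 73 of 86 positive in males but a median of −0.002 on total counts, beside −0.001 and 0.006 over all genes. Without the 3 livers that kept the fewest mitochondrial reads, the mitochondrial medians were −0.04 in females and 0.07 in males. The male mitochondrial median was −0.003 without the 8 h replicate 3 of control males. The female nuclear median turned positive, up to 0.006, without any 1 of 5 livers, namely the 4 h replicate 1 or 16 h replicate 3 of control females or the 8 h replicate 1, 12 h replicate 2 or 16 h replicate 3 of misaligned females. In MAX counts the mitochondrial medians were −0.02 in females and 0.06 in males, with 8 of 13 negative in females and 11 of 13 positive in males. The difference between the sexes in this effect was tested directly, and 0 of 99 members were called by edgeR, where 0% of all genes were, and likewise 0 by limma-voom and DESeq2. Unadjusted, 1 member passed in edgeR and in limma-voom and 2 in DESeq2. In edgeR this was Ndufs4, with a log2 difference of −0.17 ± 0.07 (SE).

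In females the smallest p among nuclear members was that of Uqcrb, a small subunit of complex III. It had 102, 125 and 186 CPM (lowest, median and highest) in misaligned females, against 100, 143 and 194 CPM in control females. The ranges overlapped almost wholly, and the log2 difference was −0.13 ± 0.07 (SE) with an adjusted p of 0.764 and the same sign at 6 of 6 clock times.

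In males the smallest p belonged to Ndufv1, the flavin-binding core subunit of complex I where NADH is oxidised. It had 136, 175 and 213 CPM in misaligned males, against 120, 158 and 190 CPM in control males. The log2 difference was 0.14 ± 0.05 with an adjusted p of 0.753. Uqcrfs1, the Rieske iron-sulfur protein of complex III, had 171, 200 and 240 CPM in misaligned males, against 151, 186 and 212 CPM in control males, a log2 difference of 0.12 ± 0.05. Atp5a1 had 1068, 1232 and 1483 CPM in misaligned males, against 895, 1154 and 1394 CPM in control males, with 0.11 ± 0.05. Sdha, the flavoprotein of complex II, had 580, 677 and 760 CPM in misaligned males, against 507, 614 and 761 CPM in control males, with 0.10 ± 0.05. The ranges of these 4 genes overlapped between treatments, and none passed the adjusted threshold.

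**Figure D3:**
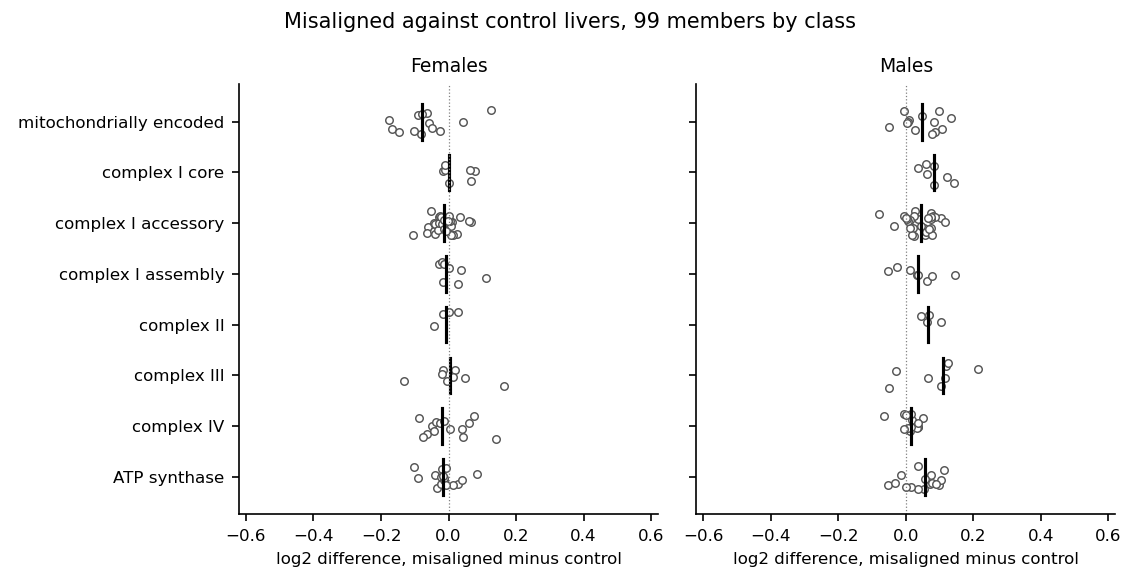
Log2 difference, misaligned minus control (horizontal axes), of the 99 tested members in females (left) and males (right), 1 row per class; each circle is a gene, the bar is the class median, and open circles are genes that did not pass the threshold, which all 99 are. The median of all 13 mitochondrially encoded members, with those uncertain in MIN, lies at −0.08 in females and 0.05 in males.

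Summed red cell and platelet markers, 8 genes with none at 0, ranged from 57.7 to 629 CPM in misaligned females, with a median of 146 CPM, against 101 to 952 CPM in control females, with a median of 351 CPM. The 1 gene called between the treatments in females, among all genes tested, was on this list and lower in misaligned females. In males they ranged from 134 to 545 CPM in misaligned and 151 to 618 CPM in control livers. Their part in the values above was not tested. In whole liver, fewer cells of a type and less RNA per cell cannot be told apart.

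Females and males differed at single members under both treatments. In misaligned mice 33 of 99 members were called, where 37.7% of all genes were. Without the 3 livers that kept the fewest mitochondrial reads it was 30. Of the 33, 3 were higher in females, where 17.8% of all genes were, and 30 were lower, where 19.9% of all genes were. In controls 14 of 99 members were called, where 32.9% of all genes were, with 4 higher in females and 10 lower, where 16% and 17% of all genes were. On total counts 26 members were called in controls, with 4771 of the 15066 genes. Called under both treatments were 12 members, with the same sign in each. That is 36.4% of the calls in misaligned mice and 85.7% of those in controls. The same overlap was not counted over all genes, so these shares do not set the members apart.

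All 13 mitochondrially encoded members had negative estimates in MIN counts under both treatments, lower in females, whereas in MAX counts mt-Nd4l was positive in both (0.02 in misaligned mice, 0.06 in controls) and mt-Co3 in controls (0.009). The median log2 difference, female minus male, was −0.27 in misaligned mice and −0.15 in controls, beside −0.08 and −0.01 for nuclear members and 0.007 and 0.006 for all genes. In MAX counts the mitochondrial medians were −0.15 in misaligned mice and −0.07 in controls, and in MIN counts without the 3 livers that kept the fewest reads they were −0.26 and −0.15. In misaligned mice 10 of 13 passed the threshold and in controls 2 of 13 did. On total counts, without TMM scaling, 11 and 5 of 13 did, and with no filter on low genes 7 and 2. The larger number in misaligned mice does not show a larger difference, since the test of the change itself called 0 members. Apart from mt-Nd6, which comes from the other strand, these 13 transcripts share precursors. All 13 also share the same libraries, and they are not independent of each other.

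mt-Nd5 of complex I had the smallest p among them in misaligned mice. It had 2744, 3256 and 3993 CPM in misaligned females, against 3269, 4199 and 4888 CPM in misaligned males. Female livers reached lower and male livers higher, with overlapping ranges, and the log2 difference was −0.37 ± 0.07 with an adjusted p of 4.89e-05 and the same sign at 6 of 6 clock times. In controls mt-Nd5 had 2674, 3328 and 4303 CPM in females and 2594, 3987 and 4930 CPM in males.

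mt-Nd2 was called under both treatments. It had 4772, 5592 and 6584 CPM in misaligned females, against 5672, 6688 and 8460 CPM in misaligned males. In controls it had 4113, 5764 and 6867 CPM in females, against 5019, 6256 and 9083 CPM in males. The log2 differences were −0.27 ± 0.07 in misaligned mice (adjusted p = 0.00185) and −0.23 ± 0.07 in controls (adjusted p = 0.00795), so the estimates lay within an SE of each other.

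mt-Nd6 showed the largest mitochondrial difference in each treatment at a low level. It had 10.2, 16.5 and 21.0 CPM in misaligned females, against 11.5, 21.8 and 25.6 CPM in misaligned males. In controls it had 10.2, 13.9 and 21.8 CPM in females, against 10.1, 18.3 and 34.5 CPM in males. The log2 differences were −0.39 ± 0.12 (adjusted p = 0.00699) in misaligned mice and −0.47 ± 0.12 (adjusted p = 0.00150) in controls. The mean sense count of mt-Nd6 was 218 per library, beside 11964 antisense counts over the same gene. How far its sense counts include reads of the other strand was not tested. The libraries held poly(A) RNA, and how fully they sample this transcript was not tested either.

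The other calls in misaligned mice were mt-Nd4 with −0.29 ± 0.06, mt-Nd1 with −0.24 ± 0.06, mt-Cytb with −0.26 ± 0.07 and mt-Co1 with −0.20 ± 0.06, and the read-poor mt-Atp6, mt-Co2 and mt-Atp8. mt-Co1 had 18901, 22076 and 27457 CPM in misaligned females, against 21792, 24524 and 31619 CPM in misaligned males. In MAX counts the calls of mt-Co2, mt-Atp6 and mt-Atp8 were lost, with log2 differences of −0.04, −0.05 and −0.10, and the other 7 calls were kept. Of these, the partly copied mt-Nd4 and mt-Co1 had −0.19 and −0.15 in MAX counts. Without the 3 livers that kept the fewest reads, 9 of 13 were called, mt-Atp8 being the one lost (adjusted p = 0.0802), and in controls 2 of 13. mt-Atp8 lost its call without any 1 of 24 of the 36 livers (adjusted p up to 0.0929), mt-Co2 without any 1 of 16 (up to 0.0966) and mt-Atp6 without any 1 of 3 (up to 0.0615). The other 7 kept their calls whichever liver was left out.

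The nuclear gene with the smallest p in controls was Atp5g1, which lies on chromosome 11 (GRCm38, chr11:96068852-96075670, minus strand). It is one of a trio of genes that encode the same mature subunit c, the ring of ATP synthase that turns in the membrane. Its level was 124, 152 and 196 CPM in misaligned females, against 94.9, 122 and 162 CPM in misaligned males. In controls it was 125, 157 and 191 CPM in females, against 80.7, 120 and 157 CPM in males. Females were higher, by a log2 difference of 0.29 ± 0.06 in misaligned mice (adjusted p = 0.000254) and 0.41 ± 0.06 in controls (adjusted p = 6.78e-07), at 6 of 6 clock times in each.

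The trio did not move together. Atp5g3, the most abundant of them, had 282, 330 and 449 CPM in misaligned females, against 319, 386 and 471 CPM in misaligned males, and was lower in females, with a log2 difference of −0.21 ± 0.05 (adjusted p = 0.00113). As a share of the summed CPM of the trio, Atp5g1 made up 24.7% to 29.99% in misaligned females, with a median of 26.8%, against 18.3% to 24.03% in misaligned males, with a median of 21.2%. In controls it made up 24.01% to 30.1% in females, median 27.2%, against 17.8% to 24.5% in males, median 21.6%. The sexes did not overlap in misaligned mice and barely overlapped in controls. Atp5g3 had median shares of 60.2% in misaligned females, 66.3% in misaligned males, 60.05% in control females and 66.2% in control males. Atp5g2, which kept only 55.3% of its reads in MIN, had medians between 12.3% and 13.05%.

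In complex IV, Cox7a2, the form of subunit VIIa found in liver and most tissues, was lower in females. It had 90.4, 108 and 169 CPM in misaligned females, against 120, 139 and 185 CPM in misaligned males. In controls it had 88.6, 118 and 136 CPM in females, against 114, 147 and 173 CPM in males. The log2 differences were −0.37 ± 0.06 (adjusted p = 1.78e-06) in misaligned mice and −0.32 ± 0.06 (adjusted p = 3.27e-05) in controls.

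Ndufa4, named for complex I but a subunit of complex IV, had 193, 239 and 337 CPM in misaligned females, against 232, 291 and 401 CPM in misaligned males. In controls it had 189, 253 and 282 CPM in females, against 236, 298 and 393 CPM in males. Females were again lower, with −0.34 ± 0.06 (adjusted p = 2.15e-05) in misaligned mice and −0.30 ± 0.06 (adjusted p = 0.000175) in controls.

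Cox7a1, the muscle form of subunit VIIa, had the largest positive difference in misaligned mice and rests on few counts. It had 1.19, 1.97 and 3.34 CPM in misaligned females, against 0.870, 1.49 and 2.38 CPM in misaligned males, with a log2 difference of 0.41 ± 0.16 (adjusted p = 0.0335). In controls it was 0.30 and not called (adjusted p = 0.138). The call was lost without any 1 of 9 livers (adjusted p up to 0.0748) and without the 3 livers that kept the fewest mitochondrial reads (adjusted p = 0.174). Summed skeletal and heart muscle markers, 5 genes in the table with none at 0 throughout, reached at most 0.807 CPM in any liver.

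Of complex I, Ndufa10 had the smallest p of all members in misaligned mice. This accessory subunit had 117, 136 and 187 CPM in misaligned females, against 149, 174 and 217 CPM in misaligned males, and 112, 144 and 163 CPM in control females, against 131, 169 and 200 CPM in control males. It was lower in females, with −0.35 ± 0.05 (adjusted p = 2.36e-07) and −0.24 ± 0.05 (adjusted p = 0.000187).

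Ndufs4, an accessory subunit whose loss causes Leigh-like disease in mice, had 52.1, 61.0 and 80.5 CPM in misaligned females, against 62.1, 73.8 and 97.3 CPM in misaligned males. In controls it had 48.7, 65.3 and 77.6 CPM in females, against 58.5, 70.7 and 86.4 CPM in males. The log2 differences were −0.31 ± 0.05 (adjusted p = 3.66e-06) and −0.15 ± 0.05 (adjusted p = 0.0280). The control call was lost without any 1 of 6 of the 36 livers, with an adjusted p of up to 0.0699. Ndufs5 behaved likewise, with −0.27 ± 0.06 in misaligned mice and −0.17 ± 0.06 in controls, where any 1 of 4 livers decided the call (adjusted p up to 0.0596).

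Ndufa1, an accessory subunit of complex I, was called under both treatments, with −0.20 ± 0.07 in misaligned mice and −0.19 ± 0.07 in controls. It lies on the X chromosome, as do Ndufb11, with 0.12 ± 0.06 and 0.10 ± 0.06, and Cox7b, with −0.12 ± 0.06 and −0.04 ± 0.06, neither of which was called. Ndufa7 was higher in females, by 0.20 ± 0.08 in misaligned mice and 0.24 ± 0.08 in controls, the misaligned call being lost without any 1 of 12 livers (adjusted p up to 0.0772). Ndufb8 and Ndufb7 were higher in control females by 0.18 ± 0.06 and 0.24 ± 0.09, and Ndufb7 lost its call without any 1 of 11 livers (adjusted p up to 0.0714).

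Atp5s, a low-level gene classed with ATP synthase by its symbol, was lower in females, with −0.32 ± 0.09 in misaligned mice (adjusted p = 0.00395) and −0.33 ± 0.09 in controls (adjusted p = 0.00316). By class, the nuclear calls in misaligned mice were 10 of 36 among core and accessory subunits of complex I, 2 of 8 assembly factors, 1 of 4 in complex II, 0 of 8 in complex III, 6 of 14 in complex IV and 4 of 16 in ATP synthase. In controls they were 8 of 36, 0 of 8, 0 of 4, 0 of 8, 2 of 14 and 2 of 16 in the same order. Over all genes 37.7% were called in misaligned mice and 32.9% in controls. The smallest adjusted p among the 8 members of complex III was 0.0696 in misaligned mice and 0.334 in controls. Unadjusted, 3 and 0 of its members passed in edgeR.

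**Figure D4:**
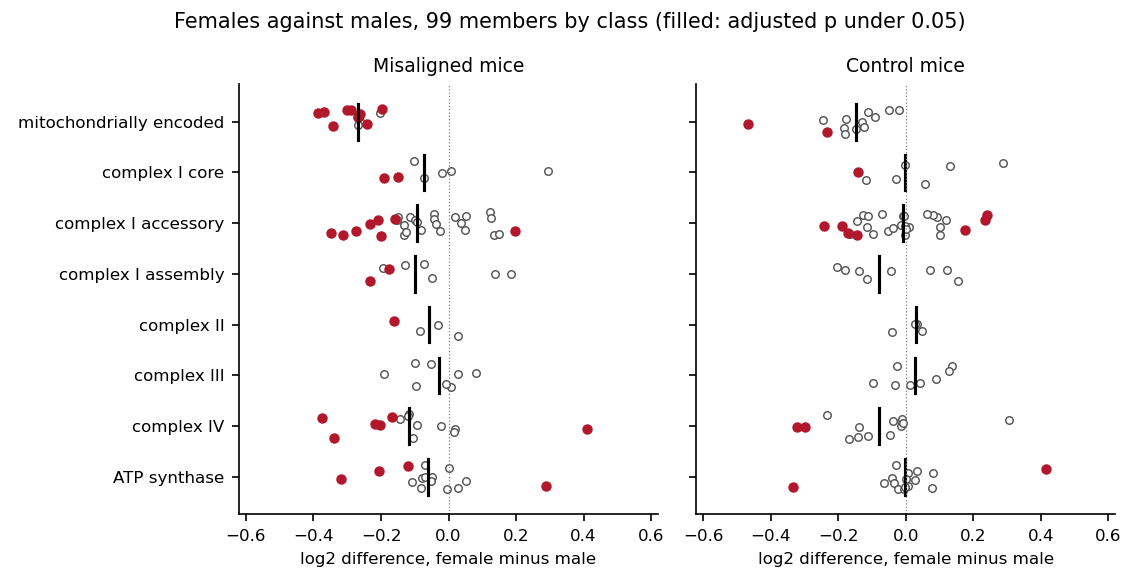
Log2 difference, female minus male (horizontal axes), of the 99 tested members in misaligned mice (left) and control mice (right), 1 row per class; each circle is a gene, filled red where the adjusted p is under 0.05, and the bar is the class median. In these MIN counts all 13 mitochondrially encoded members lie left of 0 in both panels, with medians of −0.27 and −0.15; in MAX counts mt-Nd4l (both treatments) and mt-Co3 (controls) were above 0.

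Marker genes of several cell types also differed between the sexes. Summed hepatocyte markers, 8 genes with none at 0, ranged from 91700 to 141085 CPM in misaligned females against 71927 to 110551 CPM in misaligned males, and from 91438 to 126241 CPM in control females against 72745 to 117536 CPM in control males. Summed adipocyte markers, 5 genes, ranged from 0.0836 to 3.4 CPM in misaligned females, against 3.97 to 138 CPM in misaligned males. In controls they ranged from 0.0824 to 3.45 CPM in females, against 1.97 to 141 CPM in males. Endothelial markers, 6 genes, had medians of 287 CPM in misaligned females and 213 CPM in misaligned males, and of 273 CPM in control females and 229 CPM in control males. Of the adipocyte list 1 gene passed the filter, called lower in females under both treatments. Of 8 red cell and platelet markers, 0 were called higher in females and 1 lower in misaligned mice, and 6 higher and 1 lower in controls. Of 8 Kupffer cell and macrophage markers, 3 were higher in females in misaligned mice and 5 in controls. Of 7 stellate cell markers, 1 was higher and 2 lower in misaligned females, and 3 were lower in control females. Among 8 hepatocyte markers, 3 were higher in females in misaligned mice and 2 in controls, with 0 lower. For 6 endothelial markers these counts were 4 and 3, and for 6 T and B cell markers 1 and 2. Bile duct markers, 5 genes, had 1 higher and 1 lower in misaligned females, and 2 lower in control females. Over all genes, 37.7% were called in misaligned mice and 32.9% in controls. The part of these cell types in the differences between the sexes was not tested.

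Few members passed the test for a 24 h rhythm. A cosine and a sine of 24 h were fitted for each sex and treatment with the same test. In misaligned females 6 of 99 members were called rhythmic, where 7.69% of all genes were, and 32 had an unadjusted p under 0.05, where 20.9% of all genes did. In misaligned males 0 of 99 were, where 0.00664% of all genes were, and 2 had an unadjusted p under 0.05 in edgeR, with 0 called by limma-voom and DESeq2 as well. In control females 3 of 99 were called, where 12% of all genes were, and in control males 2 of 99, where 10.8% of all genes were. No mitochondrially encoded member was called in any of these groups by edgeR, with 2 under an unadjusted 0.05 in misaligned females and 0 in each of the other groups. The median amplitude (log2, mean to peak) of members was 0.13 in misaligned females, 0.09 in misaligned males, 0.08 in control females and 0.11 in control males, beside 0.16, 0.13, 0.17 and 0.17 over all genes.

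Ndufaf4, an assembly factor of complex I, had the smallest p of the members (chr4:24898083-24905001, plus strand). Its means in misaligned females at 0, 4, 8, 12, 16 and 20 h were 18.2, 22.3, 33.1, 35.4, 25.6 and 21.6 CPM. In control females they were 19.5, 16.6, 31.8, 37.0, 33.5 and 21.9 CPM, so that both were highest at 12 h. The amplitude was 0.48 ± 0.09 (log2, SE) with a peak at 11.1 ± 0.7 h in misaligned females (adjusted p = 0.000336) and 0.58 ± 0.09 in control females, peaking at 12.9 ± 0.6 h (adjusted p = 6.12e-06). In males it was not called, with means of 29.6, 28.2, 25.9, 29.6, 29.4 and 37.0 CPM in misaligned and 25.5, 25.6, 31.4, 35.5, 30.1 and 27.1 CPM in control livers. Both female calls were kept whichever liver was left out.

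Cox7a2l, classed here with complex IV, was called in every group but misaligned males (chr17:83501918-83517330, minus strand). Its means in misaligned males were 100, 93.6, 80.6, 94.4, 92.4 and 96.2 CPM from 0 to 20 h, lowest at 8 h. In control males they were 82.9, 92.4, 103, 100, 93.8 and 81.2 CPM, highest at 8 h. The change of rhythm with misalignment was called in males (adjusted p = 0.0101), where 2 of 99 members and 9.23% of all genes were.

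In females Cox7a2l kept an amplitude of 0.19 ± 0.04 with a peak at 8.8 ± 0.8 h in misaligned mice (adjusted p = 0.0163) and 0.17 ± 0.04 with a peak at 11.1 ± 0.9 h in controls (adjusted p = 0.0195). In control males the amplitude was 0.18 ± 0.05 and the peak 9.9 ± 1.1 h (adjusted p = 0.0187). The call was lost without the 8 h replicate 1 in misaligned females (adjusted p = 0.0578), without the 12 h replicate 1 in control females (0.0525), and without the 8 h or the 20 h replicate 2 in control males (0.0612 and 0.0580). All 3 rhythm calls were also lost on total counts, with adjusted p-values of 0.0550, 0.0658 and 0.0825 in the same order. With each clock time given its own mean they were 0.182, 0.186 and 0.126. Fitted on control males alone, the control male rhythm had 0.108. On total counts, without TMM scaling, the change in males had an adjusted p of 0.103, with each clock time given its own mean 0.0525, and fitted on male livers alone 0.0598. The sex difference of the change was not called (adjusted p = 0.122).

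Ndufaf3, a partner of Ndufaf4 in complex I assembly, was the other change called in males (chr9:108565537-108567434, minus strand; adjusted p = 0.0368). Its means were 9.64, 9.76, 8.41, 9.88, 8.96 and 11.2 CPM in misaligned males, against 8.53, 8.36, 12.1, 9.22, 8.71 and 6.17 CPM in control males. The control amplitude was 0.34 ± 0.12 with a peak at 8.6 ± 1.3 h (adjusted p = 0.0209). The control rhythm was lost without the 8 h replicate 1 or 2 or the 20 h replicate 1 or 2 of control males (adjusted p up to 0.114), and the change was lost without any 1 of 11 of the 36 male livers (adjusted p up to 0.103). The change was also lost on total counts (adjusted p = 0.0586), with no filter (0.0611) and fitted on male livers alone (0.120). Fitted on control males alone, the control rhythm was lost too (adjusted p = 0.157).

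Atp5s was called rhythmic in females of both treatments (chr12:69724950-69744660, plus strand). Its means in misaligned females were 4.85, 6.22, 5.19, 4.15, 4.08 and 3.44 CPM, highest at 4 h. In control females they were 3.94, 5.21, 6.57, 5.90, 3.91 and 3.16 CPM, highest at 8 h. The peak was at 5.0 ± 1.0 h in misaligned females (adjusted p = 0.0452), against 8.4 ± 0.7 h in control females (adjusted p = 0.000683), but the misaligned call was lost without any 1 of 11 of the 18 livers (adjusted p up to 0.144). The misaligned call was also lost on total counts (adjusted p = 0.0786), with no filter (0.0717) and by limma-voom (0.0618). With each clock time given its own mean the adjusted p was 0.130. The change in females was not called for this or any member, 0 of 99 against 0.192% of all genes, with 2 members under an unadjusted 0.05 in edgeR, and limma-voom and DESeq2 called 0 too.

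The other members called in misaligned females were Ndufa5, Ndufb3 and Ndufv2 of complex I, with amplitudes of 0.26 ± 0.07, 0.21 ± 0.06 and 0.22 ± 0.05 and peaks at 12.7 ± 1.1, 12.2 ± 1.0 and 12.4 ± 0.9 h. Adjusted p-values were 0.0247, 0.0270 and 0.0304. A single liver decided all 3, since without the 12 h replicate 3 the adjusted p-values were 0.217, 0.226 and 0.184 and the count of rhythmic members in misaligned females was 2 in place of 6. That liver also holds the highest of the nuclear shares. Without the 16 h replicate 3 the count was 15. Ndufv2 was lost as well without the 4 h replicate 2 or the 12 h replicate 1 (adjusted p = 0.0559 and 0.0605), and Ndufb3 without the same 12 h replicate 1 (0.0534). With each clock time given its own mean, Ndufa5, Ndufb3 and Ndufv2 had adjusted p-values of 0.156, 0.0897 and 0.180. With no filter Ndufb3 and Ndufv2 had 0.0617 each.

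**Figure D5:**
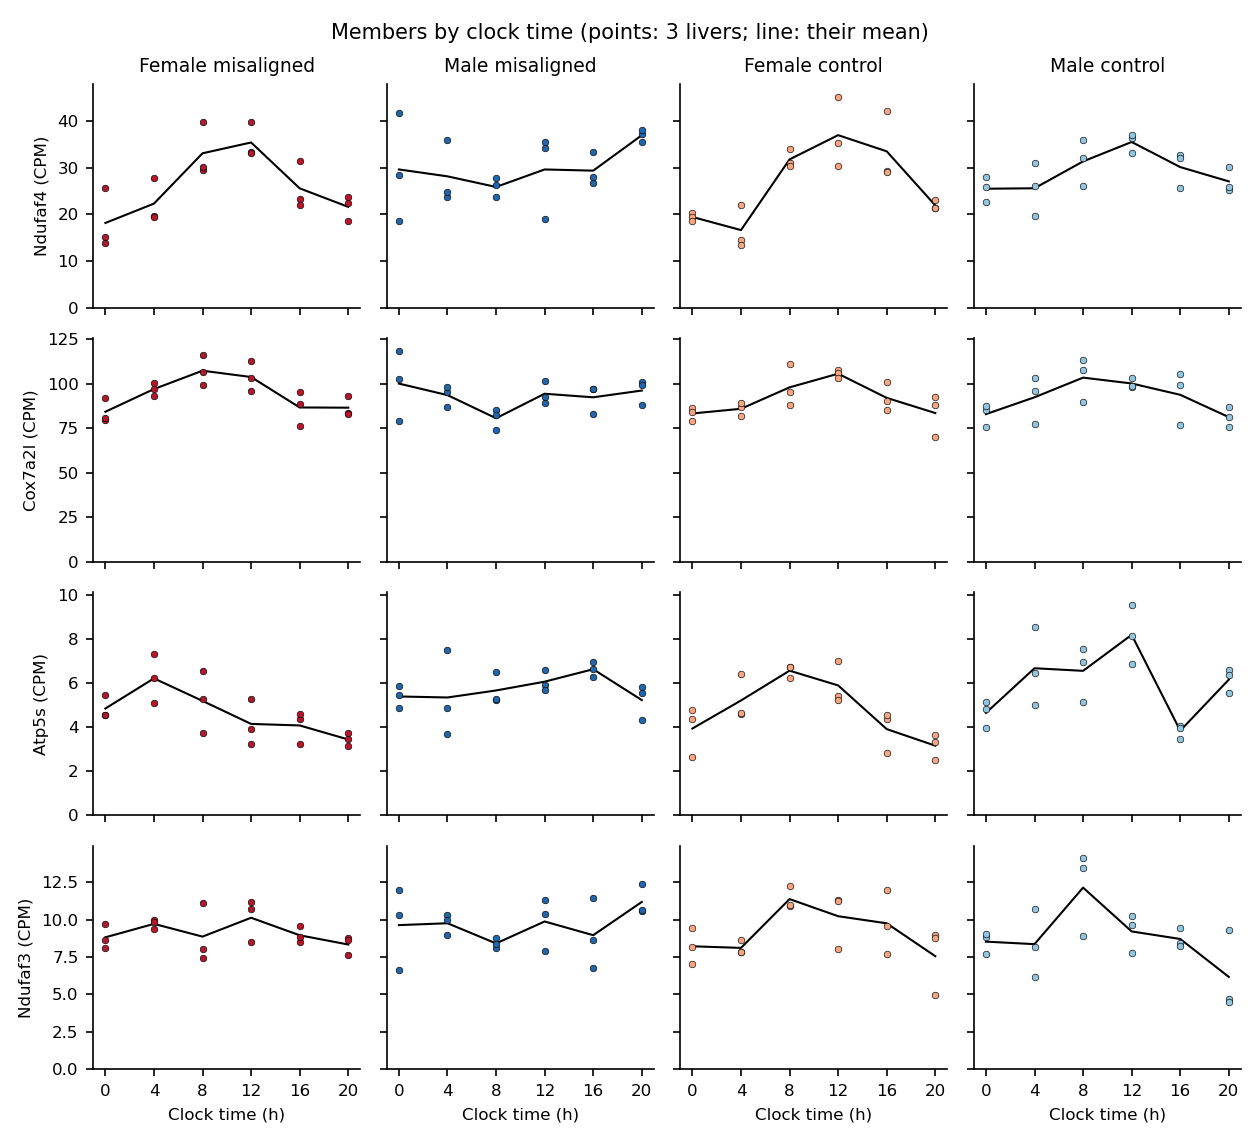
CPM (vertical axes) against clock time (horizontal axes, h) of Ndufaf4, Cox7a2l, Atp5s and Ndufaf3 in misaligned females, misaligned males, control females and control males; points are livers and lines the means of 3. Ndufaf4 is highest at 12 h in misaligned and control females (35.4 and 37.0 CPM), and Cox7a2l at 8 h is lowest in misaligned males (80.6 CPM) and highest in control males (103 CPM).

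Promoters were read for nuclear members from RefSeq (GRCm38.p6), from 250 bases before to 50 after each start. Of 90 nuclear symbols 75 had one, 73 by symbol and 2 by synonym. The binding motif of NRF1, a regulator known from many respiratory genes, was searched on both strands as GCGCA, any base, GCGC. It stood in 18 of 75 member promoters (24%) against 7.74% of 15630 promoters. CCGGAAG, for the GABP family, stood in 22.7% against 13.8%, and AAGATGGC, for YY1, in 13.3% against 3.67%. TCAAGGTCA, for estrogen-related receptors, stood in only 2 of 75 (2.67%) against 0.294%. The 15630 promoters belong to all counted genes that had one, whether or not they passed the count filter. The clock motifs were near their background, with CACGTG (E-box) in 8% against 8.93% and TTANGTAA (D-box) in 2.67% against 1.73%. No matches of different motifs overlapped each other. A match describes letters only and is no sign of binding in these livers.

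The upstream stretches of 2 genes are shown, for the member with the strongest rhythm and the nuclear member with the smallest p between the sexes in controls. That of Ndufaf4, chr4:24897833-24898082, plus strand, holds an NRF1 match, in capitals, that begins 113 bases before the start. That of Atp5g1, minus strand, holds an E-box, in capitals, that begins 44 bases before the RefSeq start. The 29 bases next to that start are left off, and the last 10 bases shown lie inside the gene model that gave the coordinates above.
Ndufaf4: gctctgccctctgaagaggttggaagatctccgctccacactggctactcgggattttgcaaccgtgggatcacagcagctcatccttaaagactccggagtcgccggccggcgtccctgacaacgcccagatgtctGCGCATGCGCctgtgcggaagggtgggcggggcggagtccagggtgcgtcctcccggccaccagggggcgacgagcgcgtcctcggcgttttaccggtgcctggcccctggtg
Atp5g1: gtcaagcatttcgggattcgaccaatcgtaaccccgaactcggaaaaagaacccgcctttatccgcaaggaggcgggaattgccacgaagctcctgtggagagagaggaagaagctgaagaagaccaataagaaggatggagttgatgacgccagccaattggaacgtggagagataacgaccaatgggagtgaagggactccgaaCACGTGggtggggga
The Atp5g1 stretch is chr11:96075661-96075881. Cox7a2l, Ndufaf3, Ndufb3, Ndufv2 and Atp5s held none of the 6 motifs in the 250 bases before their starts, and the NRF1 match of Ndufa5 lies 190 bases before its start.

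Other genes of the same machinery were counted in lists. Of other assembly factors and electron carriers, 56 were tested, of mitochondrial transcription and RNA processing 29, of regulators of biogenesis 14, and of the mitochondrial ribosome 78. The mean level changed with misalignment for 0 of each list in either sex by edgeR, with unadjusted counts of 3, 1, 1 and 2 in females and 2, 2, 0 and 3 in males. Between the sexes in misaligned mice, 2 assembly factors or carriers were higher in females and 20 lower, 4 and 4 of the transcription list, 3 and 1 of the regulators, and 6 and 17 ribosomal genes. In controls they were 4 and 15, 3 and 3, 4 and 0, and 5 and 11. Over all genes, 17.8% were higher in females and 19.9% lower in misaligned mice, and 16% and 17% in controls.

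Among these, Cox19 and Coq7 were lower in females, with log2 differences of −0.97 ± 0.08 and −1.03 ± 0.09 in misaligned mice and −0.85 ± 0.08 and −0.85 ± 0.09 in controls. Cox19 serves copper supply to complex IV and Coq7 makes coenzyme Q. Cycs, cytochrome c itself, was lower in females too, with −0.44 ± 0.06 and −0.37 ± 0.06. Twnk, the helicase that unwinds mitochondrial DNA, was higher in females, with 0.38 ± 0.06 and 0.40 ± 0.06. Rexo2, a mitochondrial exonuclease of short RNA, was lower, with −0.77 ± 0.06 and −0.60 ± 0.06. These genes and Coq10b were named after their values were seen, from the smallest p-values of their lists.

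Coq10b, a coenzyme Q binding protein, had an amplitude of 0.98 in misaligned females (adjusted p = 3.55e-07), 1.11 in control females (2.94e-09) and 0.68 in control males (0.000200). Its rhythm changed with misalignment in males (adjusted p = 0.000105), and that change differed between the sexes (adjusted p = 0.000718). Of the 56 assembly factors and carriers, 8 were called rhythmic in misaligned females, 0 in misaligned males, 9 in control females and 8 in control males. Of the 78 ribosomal genes, 3, 0, 7 and 10 were called in the same order, and 6 changed rhythm in males. Over all genes 7.69%, 0.00664%, 12% and 10.8% were called rhythmic in that order, and 9.23% changed in males.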

How the data were processed

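Poly(A) RNA of whole liver was sequenced in pairs of 150 bases from stranded libraries, per the labels' protocols, and aligned with STAR 2.6.0c to GRCm38, per the submitters' processing notes. The deposited tables carry the name PORT, a quantification and normalization pipeline, with no version or settings given in the sources used here. The deposited tables hold whole-number counts per gene, sense and antisense, as the authors made them. MIN counts are reads assigned to 1 feature and were the main measure; MAX counts, which add ambiguous reads, were an alternative.

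From these, edgeR 4.0.16 in R 4.3.3 kept 15066 of 27846 genes (filterByExpr over the 24 groups), scaled libraries by TMM, and fitted a robust quasi-likelihood model with 1 mean per group (48 residual degrees of freedom). Contrasts were averaged over the 6 clock times. A second model held a 24 h cosine and sine per sex and treatment (60 residual degrees of freedom). All p-values were adjusted over all genes tested (Benjamini and Hochberg, threshold 0.05), two-sided. Errors after ± are SE for log2 values; amplitudes and peaks with SE come from least squares on log2 CPM. The models were run on simulated counts whose effects were larger than those of any member. That run therefore does not show how small a difference could be found here. Replicates are separate livers of 1 group by the labels, which do not describe litters or batches. The p-values therefore set each difference against the spread between these livers within groups. Libraries held 11551524 to 12529963 MIN counts, so low genes such as Cox7a1 carry the largest counting error.

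Named were all called members where a comparison called 30 or fewer; otherwise the 10 with the smallest p and the 5 with the largest difference in each direction, and the mitochondrially encoded members. Where none was called, the members with the smallest p were named. The members and all lists were chosen with earlier results of these data known. Gene coordinates and exon lengths are those of GENCODE vM21. Alternatives were RLE size factors, total counts, library sizes without mitochondrial DNA, no filter, a mean of at least 5 CPM, limma-voom (limma 3.58.1), DESeq2 1.42.0, MAX counts, a replicate term, each clock time with its own mean in place of the cosine, the compared libraries alone, and leaving out libraries. Exon and intron tables were not used here. Python 3.11.15 with matplotlib 3.10.9 drew the figures. Results for 1 member are not reported here by name.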

Additional observations from a re-analysis of the deposited data

Results flagged for a closer look

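Reads antisense to mt-Nd6 form a signal in a table the comparisons do not use. The antisense counts over mt-Nd6 had a mean of 11964 per library, 55.0 times its mean sense count of 218. The other 12 mitochondrially encoded members had mean antisense counts of 505.5 (mt-Cytb) or fewer. The opposite strand of mt-Nd6 is the strand from which the other members are transcribed. Which transcript these antisense reads belong to was not tested.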

How the results depend on the processing

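Counts of members called did not move by over 1.5 times for the mean effects of misalignment, their sex difference, females against males in misaligned mice, rhythms in misaligned males and control females, the rhythm change in females and the sex difference of rhythm change, under any setting other than those that leave out replicates. Of 203 values of summary results under other settings, 191 stayed within their bound. For counts the bound was 1.5 times. For the class medians it was the SD between livers of a group, 0.23 for mitochondrial and 0.15 for nuclear members. These SDs exceed every misalignment median, so a median could change sign and still count as unmoved, as the male nuclear one did on total counts. Of 672 values of named members 620 kept their call, 52 lost it and 0 reversed. Females against males in controls gave 26 members on total counts, against 14. Rhythmic members in misaligned females numbered 3 with no filter, 10 with a mean of at least 5 CPM, 11 by DESeq2 and 1 with each clock time given its own mean, against 6. In control males they numbered 1 on total counts, 6 with each clock time its own mean and 0 with the compared libraries alone, against 2. Changes of rhythm in males numbered 0 on total counts, 1 with no filter, 13 with each clock time its own mean and 0 with the compared libraries alone, against 2. In the settings that fit fewer libraries or other genes the construction differs; otherwise the cause was not tested.

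Leaving out each replicate number, and with it 24 libraries, gave 4 to 10 members for females against males in controls, 17 to 26 in misaligned mice, 1 to 1 rhythmic in misaligned females, 2 to 2 in control females, 0 to 10 in control males and 0 to 20 changes in males; the other counts stayed at 0 to 0. Leaving out each compared library in turn gave 12 to 20, 27 to 41, 2 to 15, 3 to 4, 0 to 3 and 1 to 7 in the same order, and 0 to 0 for the others. Libraries outside a comparison were not left out. Without the 8 h replicate 2 or the 20 h replicate 2 of control males no member was called rhythmic there, and without their 8 h replicate 1 there was 1. The count of 2 changes in males became 4 without the 0 h or 8 h replicate 3 of control males or the 12 h replicate 3 of misaligned males, and 7 without the 0 h replicate 3 of misaligned males; it became 1 without any 1 of 11 other male livers.

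The replicate block, a term for the replicate number, gave 14 members for females against males in controls, 34 in misaligned mice, 6, 0, 3 and 2 rhythmic in misaligned females, misaligned males, control females and control males, 2 changes in males and 0 elsewhere, so no count moved by over 1.5 times. Same-numbered livers of the treatments did not vary together, with 3 of 18 pairs of females (r from −0.23 to 0.25) and 6 of 18 pairs of males (−0.47 to 0.45) over 0.1, so the numbers were not taken as pairs. Leaving out the 3 livers that kept the fewest mitochondrial reads was chosen after seeing the data. It gave 16 and 30 members for females against males in controls and in misaligned mice, 7 rhythmic in misaligned females, and the same counts as reported elsewhere. Depth limits the low members most, Cox7a1 with a mean of 20.6 counts per library and Ndufa4l2 with 13.2.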

Other observations

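Across all 72 livers, the genes whose log2 CPM varied most like the summed mitochondrially encoded members were Sucla2 (r = 0.86), Mtch2 (0.80), Adi1 (0.80), Psmd12 (0.79) and Lactb (0.79), among 11561 genes compared. Sucla2 encodes a subunit of succinyl-CoA ligase and Mtch2 a protein of the mitochondrial outer membrane. The r values are a description, since all points share library and depth.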
